A study of Rattus norvegicus with 6 samples.

Results

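The genes of glucose uptake and glycolysis described here were 10 of the 23139 genes listed in the deposited tables, chosen by name: Slc2a1, Hk1, Hk2, Pfkl, Pfkp, Pfkfb3, Aldoa, Gapdh, Pkm and Ldha. In primary rat microglia stimulated with LPS, addition of siponimod was accompanied by higher mRNA of Hk1 (2.53-fold) and Pfkp (1.83-fold) and by lower mRNA of Ldha (1.56-fold, near the threshold), and the other 7 genes did not pass the test. Slc2a1 and Hk2 were called higher as well when same-numbered libraries were treated as pairs. Of all genes tested, 13.6% were called higher and 11.7% lower, and with this pairing 17.7% and 16.4%. Aldoa is listed in the tables as the rows Aldoa_1 and Aldoa_2, so that the 10 genes occupy 11 rows. Aldoa_1, which holds nearly all of these reads, stands for the gene in every count of genes, and Aldoa_2 is given beside it.

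The microglia came from cortices of Wistar rats at postnatal day 1, were shaken off mixed cultures after 10 days and were purified with magnetic beads against CD11b/c. One day later they received 100 ng/mL LPS (lipopolysaccharide, which forms part of the wall of Gram-negative bacteria and is sensed by microglia) with either DMSO, the solvent control (called LPS below), or 50 µM siponimod, a modulator of the sphingosine-1-phosphate receptors S1PR1 and S1PR5 (LPS/siponimod). Each condition has 3 libraries of polyA-selected mRNA, which the study calls biological replicates, and their depth in replicates 1, 2 and 3 was 39484979, 38301365 and 38080379 counts with LPS against 46643859, 43336006 and 38857441 counts with LPS/siponimod. All 6 libraries received LPS, and neither unstimulated cells nor cells with siponimod alone are among them. The duration of stimulation before sequencing and the number of animals behind a replicate are not given in the sources used here.

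Glycolysis splits glucose into pyruvate and yields ATP and NADH without oxygen. Glucose enters through facilitative transporters such as GLUT1 (Slc2a1), is trapped by hexokinases (Hk1, Hk2), is committed to the pathway by phosphofructokinase (Pfkl, Pfkp) under the control of PFKFB3, and is then cleaved by aldolase (Aldoa) and oxidised by GAPDH. Pyruvate kinase (Pkm) makes pyruvate, which lactate dehydrogenase (Ldha) reduces to lactate or the pyruvate dehydrogenase complex passes to the mitochondria. Macrophages and microglia exposed to LPS are known for a turn towards glycolysis and lactate release, in which the hypoxia-inducible factor HIF-1 takes part by binding hypoxia response elements near many of these genes.

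To show what lies upstream of the genes on which the results turn, the 150 bases before the annotated start of transcription are printed for Slc2a1, Hk1, Pfkp, Gapdh and Ldha, from RefSeq on the assembly GRCr8, which is not the assembly the reads were mapped to. Capitals mark ACGTG or GCGTG, the core letters of the hypoxia response element, read on either strand, so that CACGT and CACGC are marked as well.
Slc2a1, chr5:138002372-138002521, plus strand: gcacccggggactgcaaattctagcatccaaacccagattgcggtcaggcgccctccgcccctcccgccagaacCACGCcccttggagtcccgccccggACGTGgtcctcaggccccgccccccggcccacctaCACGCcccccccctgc
Hk1 start 1, chr20:30874815-30874964, minus strand: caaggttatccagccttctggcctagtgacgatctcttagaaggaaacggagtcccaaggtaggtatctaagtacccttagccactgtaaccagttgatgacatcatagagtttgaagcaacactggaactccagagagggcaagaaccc
Hk1 start 2, chr20:30842073-30842222, minus strand: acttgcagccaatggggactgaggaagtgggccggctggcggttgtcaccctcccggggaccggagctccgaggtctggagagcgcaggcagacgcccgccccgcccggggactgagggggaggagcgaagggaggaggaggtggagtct
Pfkp, chr17:68639663-68639812, plus strand: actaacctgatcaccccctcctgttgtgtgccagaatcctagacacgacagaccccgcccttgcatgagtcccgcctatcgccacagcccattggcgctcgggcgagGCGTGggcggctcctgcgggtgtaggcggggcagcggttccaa
Gapdh, chr4:159652468-159652617, minus strand: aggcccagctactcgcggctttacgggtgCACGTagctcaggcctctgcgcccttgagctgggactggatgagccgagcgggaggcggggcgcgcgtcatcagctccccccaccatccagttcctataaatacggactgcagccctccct
Ldha, chr1:106507942-106508091, plus strand: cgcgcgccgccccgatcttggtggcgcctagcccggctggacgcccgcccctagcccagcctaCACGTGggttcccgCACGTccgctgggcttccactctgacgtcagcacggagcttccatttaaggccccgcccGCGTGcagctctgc

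These stretches hold 3 copies of the core letters for Slc2a1, 4 for Ldha with overlapping copies counted, 1 each for Pfkp and Gapdh and 0 for either start of Hk1. All 10 genes matched the promoter table, with 13 windows of 300 bases (250 before and 50 after a start, since Hk1 and Aldoa have several). The core letters stood in 8 of these 13 windows, against 41.6% of all 33469 promoter windows of the table (ACGTG in 19.3% and GCGTG in 29.7%). CACGTG, the E-box bound by MYC and related factors, contains ACGTG and was found for 2 genes, Pfkfb3 and Ldha, against 6.42% of all windows. The amino acid response element, searched as TGATGNAA on both strands, was found for 0 of the 10 genes, against 3.98% of all windows. Letters in a window are a description and show no binding.

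Before the results, the make-up of the cultures has to be given. Microglial markers were detected in every library, with Csf1r holding the most counts over all libraries, although Itgam held more in LPS replicate 3 and Cd68 in LPS/siponimod replicates 1 and 3. Their summed level was 8498, 7001 and 4638 CPM (counts per 1000000 counts of a library, scaled by the TMM method) in LPS replicates 1, 2 and 3 against 3692, 4593 and 2754 in LPS/siponimod replicates 1, 2 and 3. Of the 10 markers, 3 were lower with siponimod (Aif1, Itgam and Cx3cr1) and 0 higher at the thresholds defined below, and with the replicate number as a block in the test 6 were lower and 1 higher. Fewer microglia in a culture and less of this RNA per cell cannot be told apart in bulk samples.

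LPS replicate 3 and, less so, LPS/siponimod replicate 3 stood apart from the other libraries of their condition. LPS replicate 3 held 515 counts of Olig1 and 284 of Pdgfra, genes of the oligodendrocyte lineage, against 1 and 5 counts of Olig1 and 5 and 4 of Pdgfra in LPS replicates 1 and 2. It also held 88 counts of Gfap, the astrocytic filament gene, and 162 of Map2, a neuronal gene. LPS/siponimod replicate 3 held 81 counts of Pdgfra and 115 of Map2, against 1 and 4 of Pdgfra and 1 and 1 of Map2 in LPS/siponimod replicates 1 and 2. Over the 8 oligodendrocyte lineage markers the summed level was 5.34, 5.37 and 36.0 CPM with LPS and 11.4, 10.3 and 22.6 CPM with LPS/siponimod, and 1 marker, Mbp, was called higher. Mbp held the most counts of these markers over all libraries and in each but LPS replicate 3, where Olig1 did. The 6 astrocyte markers summed to 42.5, 21.0 and 21.6 against 27.5, 26.8 and 57.6 CPM, led by Slc1a3, and 0 were called. The 6 neuronal markers summed to at most 16.9 CPM, led by Tubb3, with 1 called higher (Snap25, and Tubb3 as well with the block), and the 5 fibroblast markers to at most 11.7 CPM. Dcn, the 1 fibroblast marker called higher, held the most counts over all libraries, but only 3, 0 and 4 counts with LPS, where Col1a1 led with 113, 115 and 89. Of 5 endothelial markers 4 were in the tables, led by Cdh5 in each library but LPS replicate 2, where Pecam1 led, and their sum was 167, 214 and 93.5 CPM with LPS against 39.6, 83.9 and 28.2 CPM with LPS/siponimod, with Flt1 called lower (and Cdh5 and Pecam1 as well with the block). None of the markers in the tables was at 0 in all 6 libraries, although Mog had a single count in all. The part of these cells in the values of the 10 genes was not tested. All 3 calls among the 10 genes were kept without LPS replicate 3, and without LPS/siponimod replicate 3 those of Hk1 and Pfkp were kept and that of Ldha was lost (log2 FC -0.62 against -0.64 with all libraries, edgeR quasi-likelihood adjusted p = 0.146), as it was without each of 4 other libraries.

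Differential expression was tested for 11977 genes with edgeR's quasi-likelihood test, and a gene was called higher or lower at an adjusted p of at most 0.05 (Benjamini-Hochberg, BH, over all genes tested) and a change of 1.5-fold or more, as the study set it. All 10 genes passed the filter on low counts. With LPS/siponimod against LPS, 2 of the 10 were called higher, beside 13.6% of all genes tested, and 1 was called lower, beside 11.7%. The median log2 FC was 0.17 over the 10 genes and -0.02 over all genes tested. Same-numbered libraries of the conditions deviated together, and with the replicate number as a block in the same test 4 of the 10 were called higher (17.7% of all genes) and 1 lower (16.4%). In 4 of the 10 genes all LPS/siponimod libraries lay above all LPS libraries (25.3% of all genes), and in 4 they all lay below (24%).

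**Figure D1:**
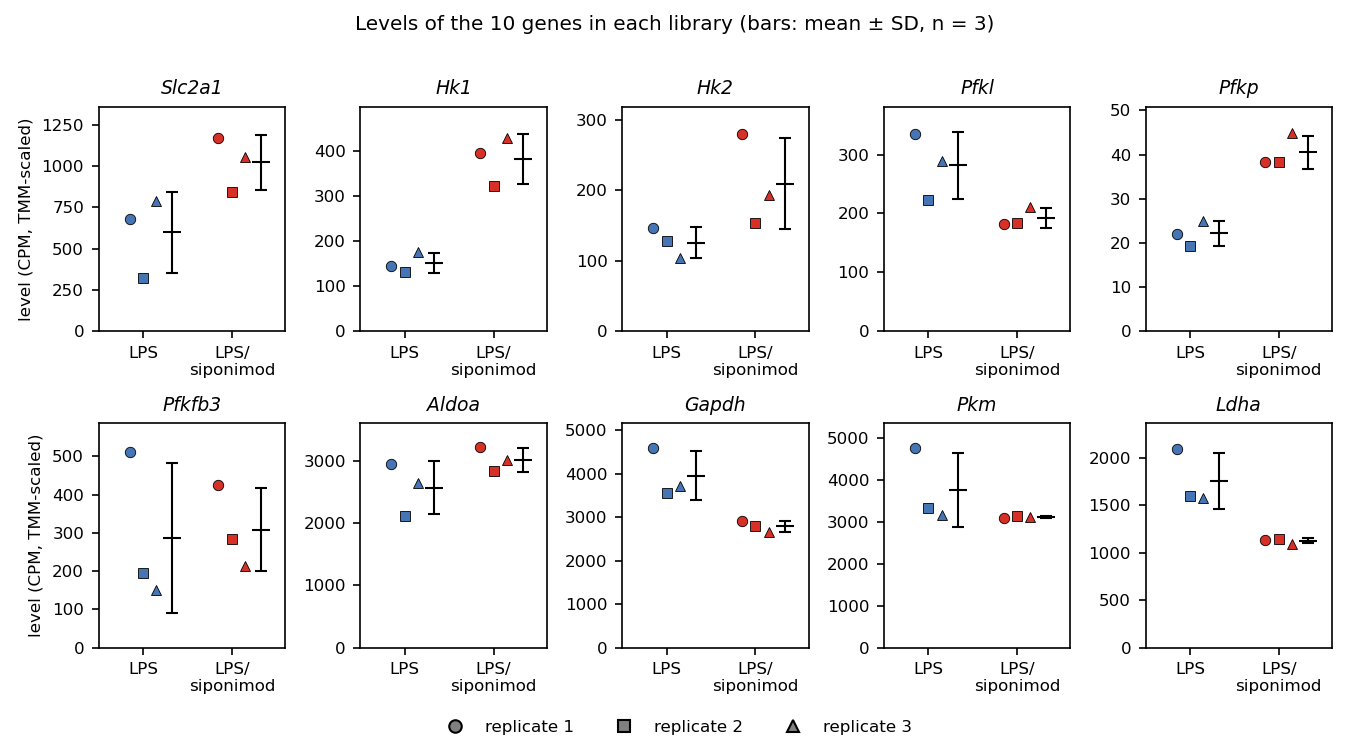
Levels of the 10 genes in each library, in CPM scaled by the TMM method, with a marker per replicate and the mean ± SD of 3 libraries per condition. Hk1, Hk2, Pfkp and Slc2a1 lay higher in every LPS/siponimod library than in any LPS library, Pfkl, Gapdh, Pkm and Ldha lay lower, and Pfkfb3 and Aldoa overlapped.

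Levels were compared within a gene only, since CPM are not corrected for transcript length. With 3 libraries against 3 the lowest p of an exact permutation test on 1 gene is 0.1, so that the adjusted p-values below rest partly on the spread that edgeR estimates over all genes.

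Slc2a1 encodes GLUT1, the main carrier of glucose into glial and many other cells. Its level was 681, 324 and 791 CPM in LPS replicates 1, 2 and 3 and 1174, 842 and 1055 CPM in LPS/siponimod replicates 1, 2 and 3. LPS replicate 2 was the lowest library by far, while the other LPS libraries came close to the lowest LPS/siponimod library without reaching it. The means were 598.7 ± 244 and 1023 ± 168 CPM (SD, n = 3 per condition), a log2 FC of 0.77 (SE, the standard error, 0.35; BH-adjusted p = 0.141 in edgeR's quasi-likelihood test), and Slc2a1 was not called. It was called with the replicate block, where the log2 FC was 0.86 and the adjusted p in edgeR's quasi-likelihood test 0.0424. Within the pairs of same-numbered libraries the log2 difference was 0.78, 1.38 and 0.42.

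Of the hexokinases, which phosphorylate glucose and so keep it in the cell, Hk1 rose. Hk1 is the form found in most tissues and the main one of the brain. It was measured at 145, 132 and 176 CPM with LPS and at 395, 322 and 429 CPM with LPS/siponimod, so that the lowest LPS/siponimod library exceeded the highest LPS library with a wide gap. The means were 151 ± 22.4 and 382 ± 54.9 CPM (SD, n = 3 per condition), a log2 FC of 1.34 (SE 0.18, BH-adjusted p = 0.00779 in edgeR's quasi-likelihood test). The difference was 1.45, 1.29 and 1.29 on the log2 scale in the 3 pairs. Hk1 was called whichever 1 of the 6 libraries was left out and in all 11 other alternatives.

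Hk2 encodes the inducible hexokinase of muscle, tumours and activated immune cells. Its level was 147, 127 and 104 CPM with LPS and 281, 154 and 194 CPM with LPS/siponimod. The groups did not overlap, but LPS/siponimod replicate 2 lay only just above LPS replicate 1. The means were 126 ± 21.5 and 209 ± 64.9 CPM (SD, n = 3 per condition), with a log2 FC of 0.73 (SE 0.26, BH-adjusted p = 0.0759 in edgeR's quasi-likelihood test), which was not called. With the replicate block Hk2 was called (log2 FC 0.71, adjusted p = 0.0359 in edgeR's quasi-likelihood test), and it was called by DESeq2 (adjusted p = 0.0302) and by edgeR's likelihood ratio test (adjusted p = 0.0443) as well.

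Of the subunits of phosphofructokinase, the enzyme of the committed step, Pfkp rose and Pfkl was not called. Pfkp, the platelet form, was measured at 21.9, 19.4 and 25.03 CPM with LPS and at 38.3, 38.4 and 44.9 CPM with LPS/siponimod. The libraries of a condition lay close together and the groups were well apart. Pfkp rose from 22.1 ± 2.84 to 40.5 ± 3.78 CPM (SD, n = 3 per condition), a log2 FC of 0.87 (SE 0.14, BH-adjusted p = 0.0110 in edgeR's quasi-likelihood test). The call was lost without LPS replicate 2, where the log2 FC was 0.80 and the adjusted p of the same edgeR test 0.0515.

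Pfkl, the liver form, was measured at 334, 222 and 289 CPM with LPS and at 182, 183 and 211 CPM with LPS/siponimod. All LPS/siponimod libraries lay below all LPS libraries, with LPS replicate 2 nearest to them. The means were 282 ± 56.5 and 192 ± 16.6 CPM (SD, n = 3 per condition), and the log2 FC of -0.55 was not called (SE 0.18, BH-adjusted p = 0.0669 in edgeR's quasi-likelihood test), also not with the replicate block (adjusted p = 0.0583).

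Pfkfb3 encodes the enzyme that makes fructose 2,6-bisphosphate, the activator of phosphofructokinase. Its level was 512, 195 and 151 CPM with LPS and 426, 285 and 213 CPM with LPS/siponimod. LPS replicate 1 was the highest of all 6 libraries, and the groups overlapped. The log2 FC was 0.11 (SE 0.51, BH-adjusted p = 0.891 in edgeR's quasi-likelihood test), and its sign turned without LPS replicate 2 (-0.10), LPS replicate 3 (-0.20) or LPS/siponimod replicate 1 (-0.21). Without LPS replicate 1 the log2 FC was 0.84, again not called.

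Aldoa encodes aldolase A, which cleaves fructose 1,6-bisphosphate into 2 trioses. The row Aldoa_1 held 2955, 2114 and 2646 CPM with LPS and 3220, 2832 and 3008 CPM with LPS/siponimod. LPS replicate 1 lay within the range of the LPS/siponimod libraries. The log2 FC was 0.23 (SE 0.20, BH-adjusted p = 0.418 in edgeR's quasi-likelihood test). The row Aldoa_2 held 94, 56 and 42 counts in LPS libraries against 98, 81 and 114 in LPS/siponimod libraries, with a log2 FC of 0.39 that was not called (adjusted p = 0.476, same edgeR test).

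Gapdh encodes the dehydrogenase that oxidises glyceraldehyde 3-phosphate, and its mRNA was the reference of the study's quantitative PCR. It was measured at 4594, 3549 and 3723 CPM in LPS replicates 1, 2 and 3 and at 2910, 2790 and 2672 CPM in LPS/siponimod replicates 1, 2 and 3. Each LPS/siponimod library was below each LPS library, and LPS replicate 1 was the highest. The means were 3955 ± 560 and 2790 ± 119 CPM (SD, n = 3 per condition), a ratio of 1.42 and a log2 FC of -0.50 that was not called (SE 0.20, BH-adjusted p = 0.0990 in edgeR's quasi-likelihood test). The log2 difference in the 3 pairs was -0.66, -0.35 and -0.48.

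Pkm encodes the muscle-type pyruvate kinase, whose splice forms M1 and M2 are counted together here. It was measured at 4776, 3341 and 3181 CPM with LPS and at 3087, 3148 and 3133 CPM with LPS/siponimod. LPS replicates 2 and 3 were barely above the LPS/siponimod libraries, and LPS replicate 1 was far above them. The log2 FC was -0.27 (SE 0.23, BH-adjusted p = 0.397 in edgeR's quasi-likelihood test), and without LPS replicate 1 it was -0.05.

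Ldha encodes the subunit of lactate dehydrogenase that prevails in cells releasing lactate. Its level was 2099, 1602 and 1574 CPM with LPS and 1137, 1147 and 1098 CPM with LPS/siponimod. The LPS/siponimod libraries lay close together, and all LPS libraries lay above them. Ldha fell from 1758 ± 295 to 1127 ± 25.9 CPM (SD, n = 3 per condition), a log2 FC of -0.64 (SE 0.18, BH-adjusted p = 0.0455 in edgeR's quasi-likelihood test), and by 0.88, 0.48 and 0.52 on the log2 scale in the 3 pairs. This call was near the threshold. In the same edgeR test the adjusted p was 0.0817 without LPS replicate 1, 0.113 without LPS replicate 2, 0.150 without LPS/siponimod replicate 1, 0.0804 without LPS/siponimod replicate 2 and 0.146 without LPS/siponimod replicate 3, so that the call was kept only without LPS replicate 3. It was also lost with no filter on low counts (adjusted p = 0.0771) and with scaling to total counts alone (adjusted p = 0.0574).

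Over all 10 genes the summed level was 16268, 11627 and 12660 CPM in LPS replicates 1, 2 and 3 and 12851, 11742 and 12062 CPM in LPS/siponimod replicates 1, 2 and 3. Most counts were held by Pkm over all libraries, but by Gapdh in LPS replicates 2 and 3 and by Aldoa in LPS/siponimod replicate 1. LPS replicate 1 stood above the rest and the other libraries of the conditions overlapped. The log2 sums differed by -0.13 between the conditions (exact two-sided permutation test, p = 0.7), and by 0.01 without LPS replicate 1. LPS replicate 1 was the highest library of all for Pfkl, Pfkfb3, Gapdh, Pkm and Ldha. For Slc2a1, Hk1 and Pfkp it was the middle one of the LPS libraries.

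The balance between genes with related products was compared as the ratio of counts within a library, which does not depend on how libraries are scaled. Its height also depends on transcript length, so that the change of a ratio is read here and not its level. The ratio of Pfkp to Pfkl was -3.93, -3.52 and -3.53 on the log2 scale with LPS alone against -2.25, -2.26 and -2.24 with LPS/siponimod. The LPS/siponimod libraries lay close together, far from the LPS libraries. The mean ratio was 2.66-fold higher with siponimod (log2 difference 1.41, exact two-sided permutation test, p = 0.1, which is the smallest possible; 0.2 after adjustment over 4 ratios).

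The ratio of Hk2 to Hk1 was 0.02, -0.05 and -0.76 on the log2 scale with LPS and -0.49, -1.07 and -1.15 with LPS/siponimod, so that LPS replicate 3 lay among the LPS/siponimod libraries. The difference of -0.64 gave p = 0.2 in the exact two-sided permutation test (0.267 after adjustment). Within each same-numbered pair the ratio of Hk2 to Hk1 was lower with siponimod (exact sign-flip test over 3 pairs, p = 0.25, the smallest possible). Slc2a3 encodes GLUT3, the transporter known from neurons. The ratio of Slc2a3 to Slc2a1 was lower in each LPS/siponimod library than in any LPS library, with a log2 difference of -0.93 (exact two-sided permutation test, p = 0.1, adjusted 0.2). Without LPS/siponimod replicate 1, which held 63 counts of Slc2a3, that difference was -0.29. Ldhb encodes the subunit of lactate dehydrogenase known from heart, and only 49, 60 and 167 counts were found with LPS against 3, 19 and 58 with LPS/siponimod. The ratio of Ldha to Ldhb overlapped between the conditions (log2 difference 2.00, exact two-sided permutation test, p = 0.3, adjusted 0.3), and without LPS/siponimod replicate 1 the log2 difference was 0.80. Within each same-numbered pair this ratio was higher with siponimod (exact sign-flip test over 3 pairs, p = 0.25). Ldhb itself was not called (log2 FC -1.95, BH-adjusted p = 0.192 in edgeR's quasi-likelihood test) but was called lower with the replicate block (log2 FC -2.32, adjusted p = 0.0297).

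**Figure D2:**
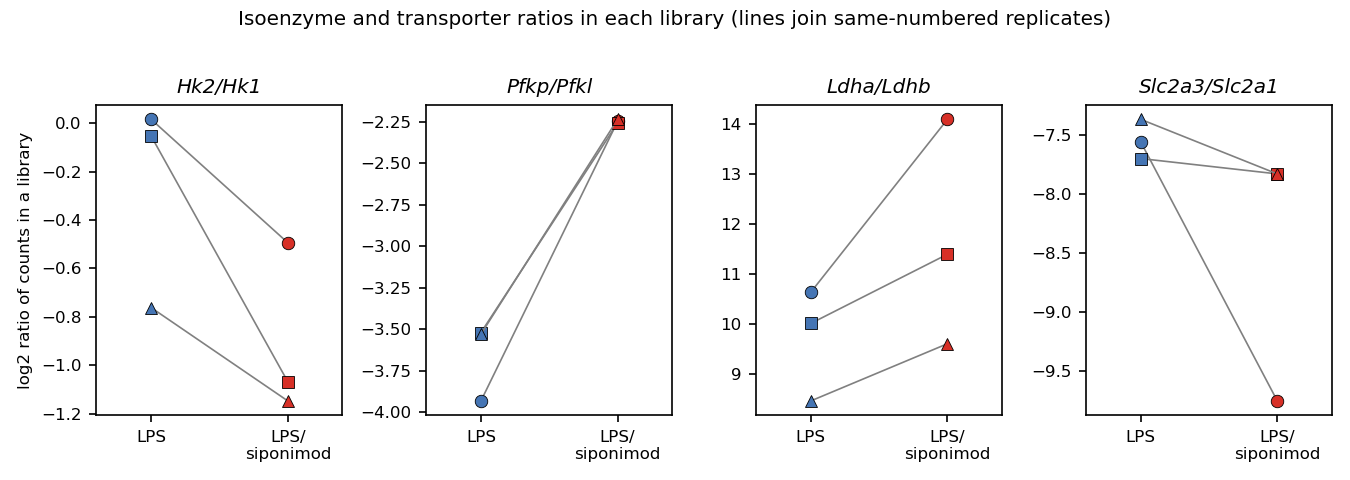
Log2 ratio of counts within each library for 4 pairs of related genes, with lines joining same-numbered replicates (circle, replicate 1; square, replicate 2; triangle, replicate 3) and a separate axis for each pair. The ratio of Pfkp to Pfkl was higher with siponimod in each of the 3 pairs, going from between -3.93 and -3.52 to between -2.26 and -2.24.

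Around the 10 genes, 9 lists of genes of glucose use were examined, which hold 97 genes of the tables, 77 of them above the filter. Of these 77, 7 were called higher (9.09%, beside 13.6% of all genes) and 14 lower (18.2%, beside 11.7%), with a median log2 FC of -0.10. The other glycolytic enzymes held 13 tested genes of 19 in the tables, of which 0 were called higher and 2 lower (3 with the replicate block), with a median of -0.15. Gpi, the isomerase between the hexokinase and phosphofructokinase steps, fell from 751 ± 256 to 340 ± 33.01 CPM (log2 FC -1.14, SE 0.26, BH-adjusted p = 0.0257 in edgeR's quasi-likelihood test). LPS replicate 1 held 1043 CPM of Gpi against 639 and 570 CPM in LPS replicates 2 and 3. The brain aldolase Aldoc fell from 4.15 ± 1.505 to 1.90 ± 0.07 CPM (log2 FC -1.12). Without 1 library, the call of Gpi was lost for LPS replicate 2 and LPS/siponimod replicates 1 and 3 (edgeR quasi-likelihood adjusted p 0.0732 to 0.107), and that of Aldoc for every library but LPS replicate 3 (0.0885 to 0.147). Of the abundant enzymes between aldolase and pyruvate kinase, Tpi1 (log2 FC -0.48), Pgam1 (0.06) and Eno1 (0.29) were not called.

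Among 4 tested regulators of the pathway, 1 was called in each direction (median 0.05), both of them relatives of Pfkfb3. Pfkfb4 fell from 38.2 ± 13.5 to 11.7 ± 4.24 CPM (log2 FC -1.71, SE 0.37, BH-adjusted p = 0.0219 in edgeR's quasi-likelihood test), and Pfkfb2 rose from 3.27 ± 0.85 to 6.07 ± 0.60 CPM (log2 FC 0.89, adjusted p = 0.0448, same edgeR test). The call of Pfkfb4 was lost without LPS replicate 1 or 2 or LPS/siponimod replicate 1 or 3 (edgeR adjusted p 0.0672 to 0.0993), and that of Pfkfb2 without every library but LPS replicate 3 (0.0579 to 0.138). Of the other glucose transporters 5 of 13 were tested, and 0 were called higher and 2 lower (median -0.44). Slc2a6, which encodes GLUT6, a transporter of myeloid cells, fell from 88.1 ± 24.4 to 48.1 ± 1.84 CPM (log2 FC -0.87, BH-adjusted p = 0.0278 in edgeR's quasi-likelihood test). Slc2a5, the fructose transporter gene known as a marker of microglia, had 55, 88 and 14 counts in the LPS libraries against 1, 12 and 2 with siponimod (log2 FC -3.57, adjusted p = 0.0477, same edgeR test). The call of Slc2a6 was lost without LPS replicate 1 or any LPS/siponimod library (edgeR adjusted p 0.0648 to 0.109), and that of Slc2a5 without LPS replicate 1 or 2 or LPS/siponimod replicate 1 or 3 (0.120 to 0.173).

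**Figure D3:**
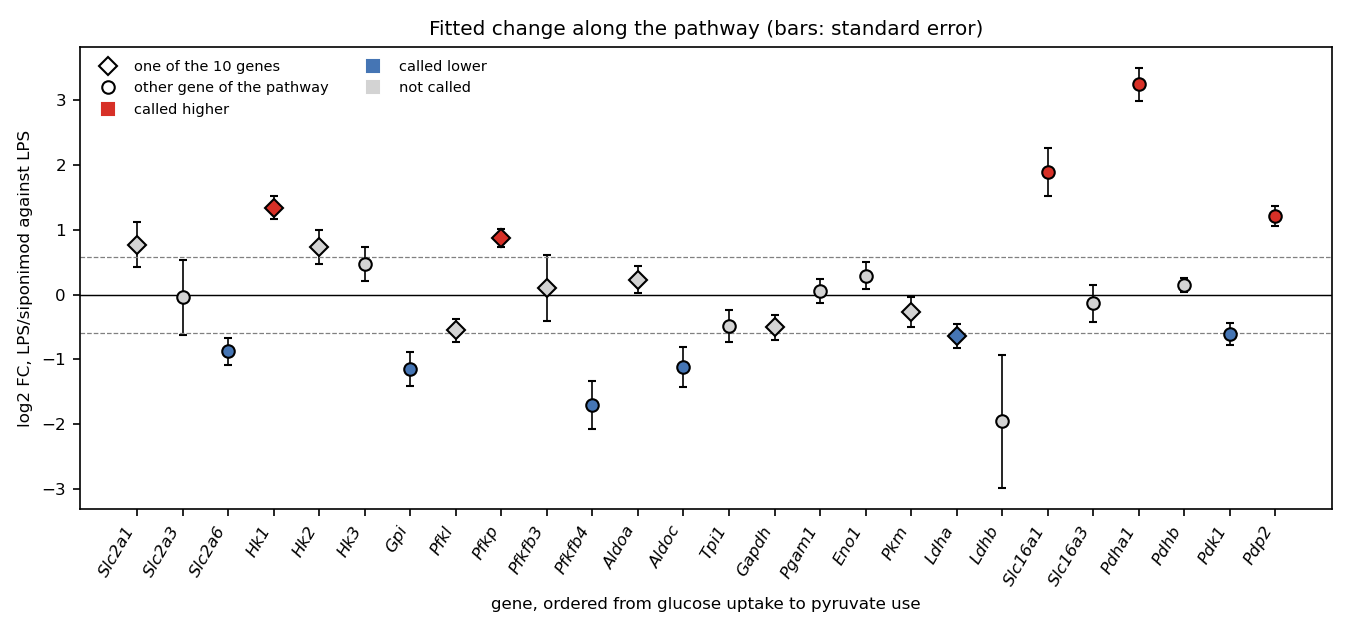
Log2 FC of LPS/siponimod against LPS with its standard error (edgeR quasi-likelihood fit) for 26 genes ordered from glucose uptake to pyruvate use, with diamonds for the 10 genes, circles for others, and dashed lines at a fold change of 1.5. Hk1 (1.34), Pfkp (0.87), Slc16a1 (1.90), Pdha1 (3.25) and Pdp2 (1.22) were called higher, and Slc2a6, Gpi, Pfkfb4, Aldoc, Ldha and Pdk1 lower.

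Beyond pyruvate, Slc16a1, Pdha1 and Pdp2 rose and Pdk1 fell. Of 5 tested genes of lactate transport 1 was called higher and 0 lower (median 0.51). Slc16a1, which encodes the lactate and pyruvate carrier MCT1, was measured at 52.7, 43.2 and 93.2 CPM with LPS and at 308, 163 and 234 CPM with LPS/siponimod, a 3.73-fold difference of means (log2 FC 1.90, SE 0.37, BH-adjusted p = 0.0167 in edgeR's quasi-likelihood test). Its groups did not overlap, and its call was lost without LPS replicate 1 or 2 or LPS/siponimod replicate 1 or 3 (edgeR adjusted p 0.0549 to 0.0668).

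Pyruvate entry and the pyruvate dehydrogenase complex held 13 tested genes, of which 2 were called higher and 1 lower (median -0.07). Pdha1 encodes the catalytic E1 alpha subunit of the complex. It was measured at 96.3, 76.6 and 69.0 CPM in LPS replicates 1, 2 and 3 and at 977, 614 and 707 CPM in LPS/siponimod replicates 1, 2 and 3, so that the lowest LPS/siponimod library was several times the highest LPS library. The means of 80.6 ± 14.0 and 766 ± 189 CPM (SD, n = 3 per condition) differed 9.50-fold (log2 FC 3.25, SE 0.25, BH-adjusted p = 0.00321 in edgeR's quasi-likelihood test), and the call was kept without any 1 library. Pdp2, the phosphatase that activates the complex, rose from 15.6 ± 1.77 to 36.3 ± 4.80 CPM (log2 FC 1.22, adjusted p = 0.00733, same edgeR test) and was likewise called in all 6 such fits. Pdk1, a kinase that inactivates the complex, fell from 31.6 ± 5.81 to 20.7 ± 1.69 CPM (log2 FC -0.61, adjusted p = 0.0389, same edgeR test), and its call was kept only without LPS replicate 3 (0.0735 to 0.131 for the others). The other subunit genes of the complex, Pdhb (log2 FC 0.14), Dlat (-0.23), Dld (-0.07) and Pdhx (1.04), were not called. Their BH-adjusted p-values in edgeR's quasi-likelihood test were 0.348, 0.189, 0.653 and 0.125.

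In the branches towards pentose phosphates and glycogen, every gene called without the replicate block fell. Of 7 tested genes of the pentose phosphate pathway, 0 were called higher and 2 lower (median -0.35): H6pd, the hexose 6-phosphate dehydrogenase of the endoplasmic reticulum (55.1 ± 7.77 to 19.4 ± 6.88 CPM, log2 FC -1.50, BH-adjusted p = 0.0136 in edgeR's quasi-likelihood test), and the epimerase Rpe (73.1 ± 17.4 to 38.2 ± 5.62 CPM, log2 FC -0.94, adjusted p = 0.0259, same edgeR test). The call of H6pd was lost without LPS replicate 2 or LPS/siponimod replicate 1 or 3 (edgeR adjusted p 0.0567 to 0.0615), and that of Rpe without these or LPS replicate 1 (0.0786 to 0.107). Of 10 tested genes of glycogen metabolism, 0 were called higher and 5 lower (median -0.59), and 1 (Pygm, the muscle phosphorylase, log2 FC 2.19 with the block) was called higher and 5 lower with the replicate block. Those called lower included the phosphorylases Pygb (97.6 ± 10.4 to 44.7 ± 7.57 CPM, log2 FC -1.13, BH-adjusted p = 0.00895 in edgeR's quasi-likelihood test) and Pygl (158 ± 40.9 to 68.5 ± 10.3 CPM, log2 FC -1.21, adjusted p = 0.0160), which release glucose 1-phosphate from glycogen, and the phosphoglucomutases Pgm1 (51.8 ± 1.05 to 30.6 ± 1.65 CPM, log2 FC -0.76, adjusted p = 0.00733) and Pgm2 (log2 FC -0.67). Pgm1 and Pygb were called in all 6 fits that left out 1 library. The call of Pygl was lost without LPS/siponimod replicate 1 (edgeR adjusted p = 0.0716) or LPS/siponimod replicate 3 (0.0540).

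Of 4 tested genes of the gluconeogenesis list, 2 were called higher and 0 lower, with a median of 0.86, and Pc, the gene of pyruvate carboxylase, was called higher as well with the replicate block (log2 FC 1.11). Pck2 encodes the mitochondrial phosphoenolpyruvate carboxykinase, also known as a target of amino acid stress signalling, and rose from 6.98 ± 0.56 to 33.3 ± 8.92 CPM (SD over 3 libraries per condition; log2 FC 2.25, SE 0.22, BH-adjusted p = 0.00536 in edgeR's quasi-likelihood test). Its libraries lay at 6.48, 7.58 and 6.89 CPM with LPS and at 31.0, 43.2 and 25.8 CPM with LPS/siponimod, with no overlap, and its call was kept without any 1 library. Slc37a4, the glucose 6-phosphate transporter of the endoplasmic reticulum, rose from 13.2 ± 2.33 to 21.8 ± 1.63 CPM (log2 FC 0.72, adjusted p = 0.0289, same edgeR test), a call that was lost without each library in turn (log2 FC 0.58 to 0.81, edgeR adjusted p 0.0231 to 0.117). The cytosolic carboxykinase gene Pck1 had 0 counts in each of the 6 libraries, and Fbp1, the hepatic fructose bisphosphatase gene, had 2 counts in all.

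Among 16 tested transcription factors and sensors of glucose use, 1 was called in each direction (median 0.01). Txnip, a glucose-responsive inhibitor of glucose uptake, fell from 505 ± 84.9 to 294 ± 63.5 CPM (log2 FC -0.78, BH-adjusted p = 0.0451 in edgeR's quasi-likelihood test), and its call was kept only without LPS replicate 3 (0.0660 to 0.137 for the others). Hif1a, the gene of the hypoxia-inducible factor itself, was measured at 1071, 615 and 973 CPM with LPS and at 638, 643 and 662 CPM with LPS/siponimod, with overlap, and was not called (log2 FC -0.45, BH-adjusted p = 0.186 in edgeR's quasi-likelihood test).

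**Figure D4:**
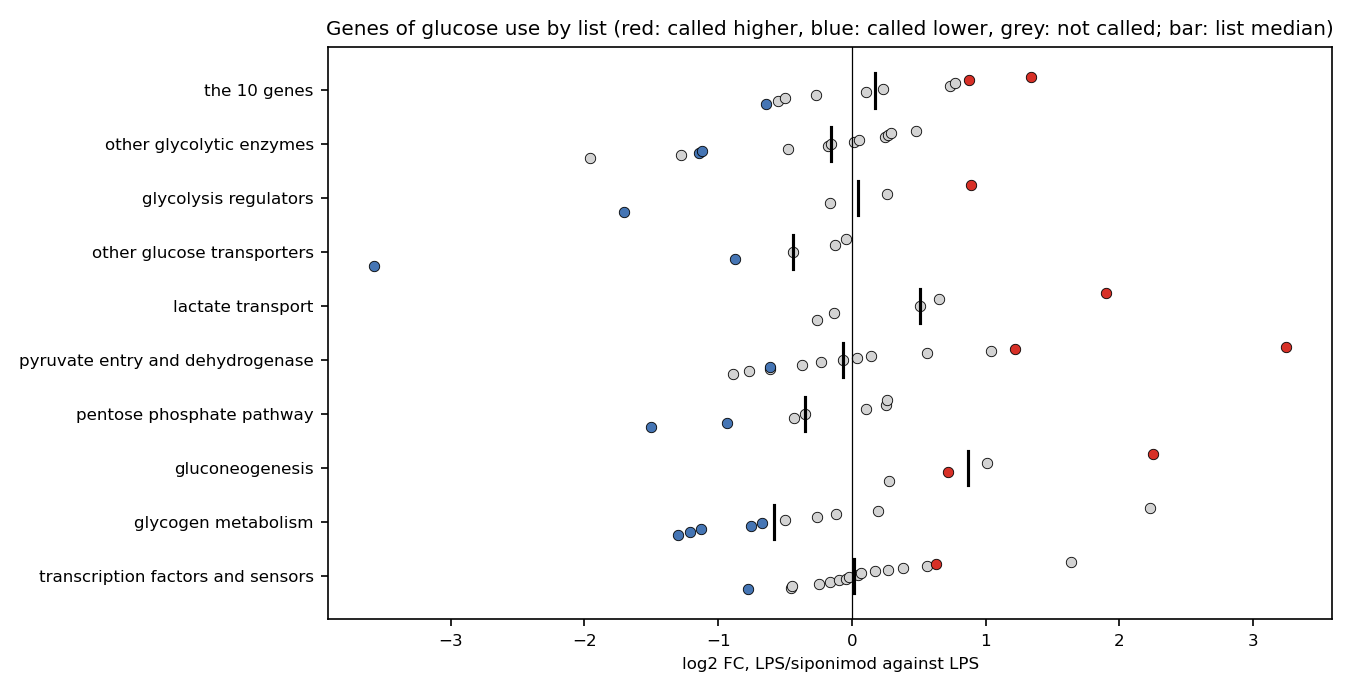
Log2 FC of LPS/siponimod against LPS for each tested gene of the 10 genes and of the 9 lists of glucose use, with red for called higher, blue for called lower, grey for not called and a vertical bar for the median of a list. The medians ran from -0.59 for glycogen metabolism to 0.86 for gluconeogenesis, with 0.17 for the 10 genes.

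Since Gapdh was the reference of the study's quantitative PCR, it was set beside other genes used for this purpose. The study also named Hprt1, Odc and Tbp, and states that Gapdh was more accurate and stable for normalization than these. The values behind that comparison are not given in the sources used here. Odc is listed in the tables as Odc1. Of the 10 reference genes tested, 0 were called higher and 2 lower (1 and 3 with the replicate block). Hprt1, a purine salvage enzyme gene, fell from 332 ± 32.03 to 122 ± 41.4 CPM (SD over 3 libraries per condition; log2 FC -1.44, SE 0.28, BH-adjusted p = 0.0169 in edgeR's quasi-likelihood test), a call lost without LPS replicate 2 (0.0651) or LPS/siponimod replicate 1 (0.0686). Actb, the gene of beta-actin, fell from 12353 ± 1854 to 2488 ± 1468 CPM (log2 FC -2.31, adjusted p = 0.0174, same edgeR test), and its call was lost without LPS replicate 2 or LPS/siponimod replicate 1 or 3 (0.0678 to 0.0708). Odc1, ornithine decarboxylase, was not called (log2 FC 0.95, BH-adjusted p = 0.122 in edgeR's quasi-likelihood test), but was called higher with the replicate block (adjusted p = 0.0118) and without LPS replicate 3 (adjusted p = 0.0406). Tbp, the TATA-binding protein gene, was measured at 10.4, 10.3 and 9.99 CPM with LPS and at 12.7, 11.4 and 11.5 CPM with LPS/siponimod, with no overlap and a log2 FC of 0.22 that was not called (adjusted p = 0.257, same edgeR test).

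**Figure D5:**
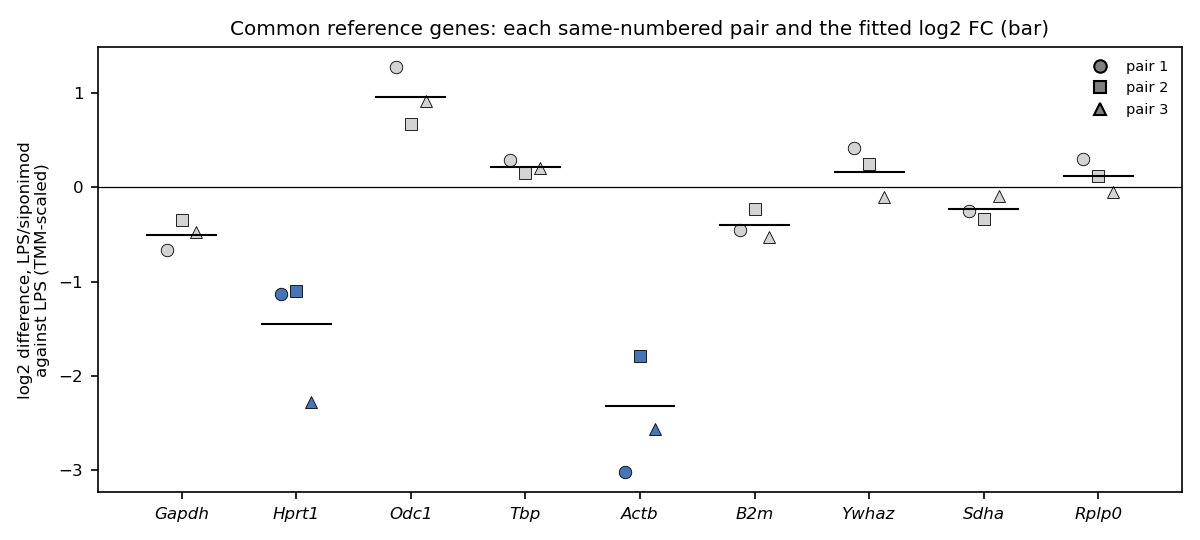
Log2 difference of each same-numbered pair of libraries (points) and the fitted log2 FC of LPS/siponimod against LPS (bars) for 9 common reference genes, on the TMM scale, with blue for called lower and grey for not called. Gapdh was lower in all 3 pairs (-0.66, -0.35 and -0.48), Hprt1 and Actb were lower by more, and Odc1 was higher in all 3.

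The choice of reference moved all genes together. With libraries scaled to Gapdh counts the median log2 FC over all genes tested was 0.46, with Hprt1 it was 1.55, with Odc1 -0.96 and with Tbp -0.24, against -0.02 with TMM scaling. The log2 FC of Gapdh turned to 1.05 when scaled to Hprt1 (BH-adjusted p = 0.0362 in edgeR's quasi-likelihood test) and was -0.72 when scaled to Tbp (adjusted p = 0.0391) and -1.47 when scaled to Odc1 (adjusted p = 0.118). Such a scaling shifts all genes alike, so that the place of Gapdh below the median of all genes is 1 observation under any of them.

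The cytokine genes that the study measured against Gapdh were compared on both scales. By quantitative PCR the study found that siponimod significantly reduced the LPS-induced rise of Tnf and Il1b. It also found that siponimod prevented the induction of Il10 and Ifnb1, and that the secreted proteins were lower as well. Whether the sequenced libraries share cultures or duration of stimulation with those assays is not given in the sources used here. The values below were not tested against those measurements. Tnf was measured at 75.1, 156 and 568 CPM with LPS and at 87.9, 188 and 138 CPM with LPS/siponimod. The LPS libraries spread widely, with LPS replicate 3 the highest and LPS replicate 1 the lowest of all 6. The log2 FC was -0.95 with TMM scaling (BH-adjusted p = 0.358 in edgeR's quasi-likelihood test) and -0.51 when libraries were scaled to Gapdh counts. For Il1b these values were -1.05 (adjusted p = 0.229, same edgeR test) and -0.59, and for Il10 -1.58 (adjusted p = 0.120, same edgeR test) and -1.13. None of the 3 was called on either scale with all 6 libraries. Il10 was called lower without LPS/siponimod replicate 2 (log2 FC -2.67, edgeR quasi-likelihood adjusted p = 0.0132) and when libraries were scaled to Odc1 (log2 FC -2.15, adjusted p = 0.00453). As mean log2 ratio to Gapdh within a library, the difference was -0.02 for Tnf (p = 1), -0.26 for Il1b (p = 0.9) and -1.47 for Il10 (p = 0.2; exact two-sided permutation tests, adjusted p of 1, 0.982 and 0.48 over 12 ratios). The other 9 of these ratios moved with the reference. For Tnf the difference was 0.99 to Hprt1, -1.47 to Odc1 and -0.73 to Tbp, for Il1b it was 0.75, -1.71 and -0.97, and for Il10 it was -0.46, -2.92 and -2.18. The adjusted p of these 9 lay between 0.4 and 0.72 (exact permutation tests). Ifnb1 had 16, 7 and 40 counts in the LPS libraries against 0, 1 and 1 with siponimod and was below the filter. Il1b was measured at 5591 CPM in LPS replicate 3 against 1392 and 1394 CPM in LPS replicates 1 and 2. Without LPS replicate 3 the log2 FC with TMM scaling was 0.26 for Tnf and -0.05 for Il1b.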

How the data were processed

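Bulk mRNA of 6 libraries of primary rat microglia was analysed, 3 per condition. The authors sequenced single-end reads of 150 bp, converted and demultiplexed them with bcl2fastq (2.20.0.422), trimmed and mapped them to the rat assembly mRatBN7.2 in the CLC Genomics Workbench, and deposited the raw total counts of each library by gene name, not normalized. The treatment of multi-mapping reads, strand and introns is not given in the sources used here, so that genes with near-identical copies or processed pseudogenes (Gapdh, Pkm, Ldha, Aldoa, Eno1) are uncertain. Depth was 38080379 to 46643859 counts, at which 1 count is about 0.03 CPM or less; counts of 3 or fewer were treated as the floor, for counting error only. In 1 table a blank row holding 0 counts was left out.

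Counts were analysed in R (4.3.3) with edgeR (4.0.16): TMM, filterByExpr (minimum count 10, total 15) and the unpaired quasi-likelihood test on all 11977 remaining genes, with Benjamini-Hochberg adjustment. The study describes grouping its samples by condition and mentions no pairing for sequencing. Alternatives were DESeq2 (1.42.0), limma-voom (3.58.1), the likelihood ratio test, glmTreat, other scalings and filters, leaving out each library and a replicate block. Replicate numbers are taken from the labels, which do not say what they share. Deviations from the condition means correlated positively between same-numbered libraries (r = 0.42, 0.55 and 0.61), and the numbers were taken as pairs on this sign in the data. Between libraries of different numbers r was -0.53 to 0.09. Deviations cancel out within a condition, so that positive r for the same numbers bring lower r for the others. The lower r are therefore no separate sign of pairing. Ratios within libraries were tested by exact permutation (SciPy 1.17.1), and over same-numbered pairs by exact sign flips. P-values measure the spread between these libraries. The code was tested on simulated data.

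The 10 genes, the lists and the tests were chosen with earlier results of these data known. Beside the 10 genes, up to 3 called genes of a list in each direction with the smallest adjusted p were named, with the partners in ratios, reference genes, cytokine genes and the leading markers. Tpi1, Pgam1, Eno1, Actb, Pgm2, Pygm, Pc, Hif1a, Pck1, Fbp1 and the markers Aif1, Itgam, Cx3cr1, Olig1, Pdgfra, Gfap, Map2, Cd68, Col1a1, Snap25, Mog, Flt1 and Pecam1 fall outside this rule and were chosen after their values were seen. The same holds for Hk3, Pfkm, Pdhb, Dlat, Dld and Pdhx. Pgk1, Hkdc1, Ppia, Mlxipl, Cldn5, Pcx and G6pc were not analysed here. Some genes counted in the lists are not reported here by name. Promoter sequences are from RefSeq (GRCr8).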

Additional observations from a re-analysis of the deposited data

How the results depend on the processing

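Among the 10 genes, 2 were called higher and 1 lower, beside 13.6% and 11.7% of all genes tested. With a replicate block, 4 were called higher and 1 lower, beside 17.7% and 16.4% of all genes tested. Apart from the calls given above, the block changed no other call of the 10 genes, the pathway lists or the reference genes. With glmTreat, which tests against the 1.5-fold threshold itself, 1 was called higher and 0 lower, 4 genes of the pathway lists higher and 2 lower, and 693 of all genes higher and 297 lower. With no filter on low counts, 0 of the 10 were called lower and 8 pathway list genes lower. Leaving out 1 library gave 1 to 2 of the 10 higher and 0 to 1 lower, 3 to 5 pathway list genes higher and 2 to 16 lower, and 469 to 1941 of all genes higher and 182 to 1772 lower; fewer libraries were tested there. The log2 FC of Gapdh ranged from -0.56 to -0.37 in these fits, and was 1.05 when scaled to Hprt1, -0.72 when scaled to Tbp and -1.47 when scaled to Odc1. Scaling to Hprt1 moved the median of all genes to 1.55, and with it Tnf to 0.70 and Il1b to 0.69. The summed level of the 10 genes differed by -0.23 to 0.0091 (log2), the latter without LPS replicate 1. RLE scaling, DESeq2, limma-voom, the likelihood ratio test and a minimum of 1 CPM kept these counts of calls within 1.5 times. Summing both Aldoa rows, an alternative chosen after seeing the data, left the counts among the 10 genes at 2 and 1.

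Signs turned for some genes that were not called. Without 1 library the log2 FC of Pfkfb3 ranged from -0.21 to 0.84, that of Pgam1 from -0.025 to 0.19 and that of Slc2a3 from -0.39 to 0.32, and Slc2a3 was at 0.059 with total counts only. Tnf ranged from -1.37 to 0.26 without 1 library, being highest without LPS replicate 3. Il1b ranged from -1.35 to -0.05 and Il10 from -2.67 to -1.17 without 1 library, Il10 being called without LPS/siponimod replicate 2. The causes were not tested. Depth limits Slc2a5, Ldhb and Ifnb1, which had few counts; the 10 genes had at least 746 counts in every library.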

Other observations

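The genes outside the lists whose levels followed the mean standardized log2 CPM of the 10 genes most closely over the 6 libraries were Kank3 (Pearson r = 0.992), Aen (0.992), Gpt (0.969), Depdc7 (0.963) and Pgrmc1 (0.950), out of 11851 genes compared. The 6 points share their libraries and their conditions, and so many genes were compared over so few libraries that these values describe an order only.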
